A study of Mus musculus with 2 samples.

Results

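The EGR, NR4A and AP-1 early genes are 10 transcription factor genes: Egr1, Egr2, Egr3, Nr4a1, Nr4a3, Fos, Fosb, Jun, Junb and Jund. Most of them are switched on within minutes of a stimulus, whereas Jund is largely constitutive. They were chosen by symbol, and all 10 were found among the 30905 genes listed for both libraries. Germinal center B cells, which mutate their antibody genes and compete for antigen and T cell help, had been sorted from the spleens of 8-week-old C57BL/6J mice, an inbred strain, that had received SRBC (sheep erythrocytes, a particulate antigen). The series holds 1 group of 2 droplet libraries, called library 1 and library 2 here, with no untreated, mutant or second-condition group. All comparisons are therefore between classes of cells inside each library, and the sorting gate and the number of mice pooled are not given in the sources used here. Whether the libraries come from different mice is also not given, so the spread between them may be technical and the p-values do not measure spread between mice. With 2 libraries, the p-values rest largely on counting error and on a spread estimated over many genes together. A small p-value can therefore go with unlike differences in the 2 libraries, and values are given by library.

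EGR proteins are zinc finger factors induced through MAP kinase signalling and serum response factor (SRF), and in B cells their genes respond to the antigen receptor. NR4A proteins are orphan nuclear receptors, and Nr4a1 is widely used as a reporter of antigen receptor signalling in lymphocytes. FOS proteins pair with JUN proteins to form AP-1, which binds DNA as a dimer. In the germinal center, B cells of the light zone meet antigen and T cells, and cells of the dark zone divide and mutate.

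The libraries held 75121538 and 61874342 unique molecular identifiers (UMIs, each marking 1 captured RNA molecule). Of the barcodes, 5142 and 3526 passed limits of 500 genes, 1000 UMIs and no more than 20% UMIs of mitochondrial genes. Of these, 4677 and 3135 had at least 3400 UMIs, the depth to which every cell was thinned before it was put in a class, and they had median depths of 8900 and 9240 UMIs. The libraries shared 9 barcodes. The 10 genes listed as germinal center markers were all detected in both libraries. The highest of them, Cd79a, at 1174 and 1283 CPM, is a B cell gene not limited to the germinal center, and it is part of every sum of this list. Of other lineages, the T cell gene Cd3e was at 0 and 0.10 CPM (UMIs scaled to an equal total), the macrophage gene C1qa at 2.01 and 0.50, and the neutrophil gene S100a9, the natural killer gene Ncr1, the platelet gene Pf4 and the dendritic gene Siglech at 0 in both libraries. Other genes of these lists were higher: the T cell gene Trac stood at 0.953 and 1.64 CPM, the macrophage gene Cd68 at 5.63 and 6.21, and the natural killer gene Prf1 at 0.347 in library 1. Not all marker lists were near 0. Among naive and memory B cell markers, Klf2 stood at 33.4 and 43.5 CPM and Ighd at 24.9 and 26.4. Among plasma cell markers, Jchain stood at 610.4 and 665 CPM and Xbp1 at 86.0 and 90.6, while Sdc1 was at 0.520 and 0.447. Among dendritic markers Flt3 stood at 27.0 and 31.9 CPM. Summed levels of some of the marker lists are given beside the comparisons.

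Levels are CPM, the UMIs of a gene scaled to the same total in every class of cells, from unthinned counts, and shares of cells are from thinned counts. Over all cells, Egr1 stood at 36.4 and 31.2 CPM in libraries 1 and 2, Egr2 at 2.88 and 4.15 and Egr3 at 7.19 and 8.39. Nr4a1 stood at 3.78 and 3.38, and Nr4a3 had a UMI in only 4 thinned cells of each library. Fos stood at 115 and 102, Fosb at 60.9 and 58.7, Jun at 50.0 and 49.6, Junb at 95.8 and 116 and Jund at 464 and 496 CPM. Jund transcripts were found in 76.8% and 79.2% of thinned cells and Fos transcripts in 33.2% and 30.05%. Egr2 was found in 0.877% and 1.40% and Nr4a1 in 1.11% and 1.28%, so that statements on these genes rest on few cells. Egr1 was unevenly spread: 10.1% and 9.51% of cells had any Egr1 UMI, up to 11 and 17 UMIs in a cell, and the 1% of cells with the most held 29.7% and 29.5% of all its thinned UMIs. No cell type that should lack these genes was present in number, so the part of single UMIs that comes from free RNA was not tested.

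On mm10, with GENCODE release M21, Egr2 (ENSMUSG00000037868) lies at chr10:67535475-67542188 and Egr3 (ENSMUSG00000033730) at chr14:70077203-70082614. Nr4a1 (ENSMUSG00000023034) lies at chr15:101254269-101274795 and Nr4a3 (ENSMUSG00000028341) at chr4:48045153-48086447. Fos (ENSMUSG00000021250) lies at chr12:85473890-85477273 and Fosb (ENSMUSG00000003545) at chr7:19302696-19310051. Jun (ENSMUSG00000052684) lies at chr4:95049034-95052222, Junb (ENSMUSG00000052837) at chr8:84974484-84978718 and Jund (ENSMUSG00000071076) at chr8:70698949-70700616. Jun and Jund are annotated with a single exon. On the opposite strand, Jun overlaps Junos, Jund overlaps Gm11175 and Junb overlaps Prdx2. Whether the counting used the strand is not given in the sources used here, so the counts of these 3 genes may hold reads of their neighbours.

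The 250 bases before the transcription start are shown for 3 members that were higher in the light zone gate (Egr2, Nr4a1, Junb). They are also shown for 3 that instead rose with the mitochondrial share of the cell (Fos, Fosb, Jun). The members do not fall cleanly into these 2 sets. In the data below Egr1 was higher in the light zone gate and also rose with the mitochondrial share, and Jund rose with it in all cells but not at equal depth. The sequences are from RefSeq on GRCm38.p6, 5′ to 3′ along the gene: Egr2 chr10:67537619-67537868 (plus strand), Nr4a1 chr15:101266596-101266845 (plus), Junb chr8:84978749-84978998 (minus), Fos chr12:85473640-85473889 (plus), Fosb chr7:19310046-19310295 (minus) and Jun chr4:95052223-95052472 (minus). Capitals mark TGACG, the core of the cyclic AMP response element bound by CREB proteins, on either strand (CGTCA), and the CArG box, the element bound by SRF.
Egr2: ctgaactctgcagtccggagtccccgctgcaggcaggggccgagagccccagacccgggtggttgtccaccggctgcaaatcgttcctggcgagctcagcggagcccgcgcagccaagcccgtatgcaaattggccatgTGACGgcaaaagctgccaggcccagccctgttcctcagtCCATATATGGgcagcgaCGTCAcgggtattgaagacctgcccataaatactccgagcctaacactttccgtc
Nr4a1: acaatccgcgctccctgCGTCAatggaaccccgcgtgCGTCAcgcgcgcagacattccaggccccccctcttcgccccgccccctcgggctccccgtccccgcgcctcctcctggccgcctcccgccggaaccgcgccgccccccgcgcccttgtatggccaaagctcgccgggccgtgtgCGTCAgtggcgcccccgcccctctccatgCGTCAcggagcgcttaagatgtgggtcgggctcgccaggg
Junb: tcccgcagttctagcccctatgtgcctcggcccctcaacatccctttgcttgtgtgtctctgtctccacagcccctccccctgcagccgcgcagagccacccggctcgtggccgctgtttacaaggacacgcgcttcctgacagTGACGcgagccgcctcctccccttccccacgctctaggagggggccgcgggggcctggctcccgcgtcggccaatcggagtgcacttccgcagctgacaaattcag
Fos: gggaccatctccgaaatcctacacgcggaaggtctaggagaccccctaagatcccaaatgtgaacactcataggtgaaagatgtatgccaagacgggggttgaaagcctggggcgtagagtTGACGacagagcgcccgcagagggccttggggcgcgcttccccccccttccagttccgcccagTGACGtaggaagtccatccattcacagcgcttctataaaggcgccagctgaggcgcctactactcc
Fosb: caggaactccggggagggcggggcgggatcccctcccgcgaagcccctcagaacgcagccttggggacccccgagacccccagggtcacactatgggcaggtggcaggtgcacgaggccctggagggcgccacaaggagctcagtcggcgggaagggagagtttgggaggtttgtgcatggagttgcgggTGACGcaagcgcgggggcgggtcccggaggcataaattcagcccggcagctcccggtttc
Jun: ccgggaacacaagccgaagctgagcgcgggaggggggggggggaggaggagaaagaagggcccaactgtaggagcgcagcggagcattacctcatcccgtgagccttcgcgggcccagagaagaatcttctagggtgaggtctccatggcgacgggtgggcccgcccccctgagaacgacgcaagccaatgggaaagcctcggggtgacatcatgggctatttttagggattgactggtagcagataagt
RefSeq windows were matched for 8 of the 10 members, all but Egr1 and Egr3. The core TGACG was found in 6 of these 8, namely the 5 shown above other than Jun, and Nr4a3, against 17.8% of 32851 windows of the same length. In Egr2 the cores start at positions −111 and −55 and the CArG box at −72, counted from the start site. The CArG box was found in 1 of the 8 members and in 1.47% of all windows. The whole element TGACGTCA, which holds TGACG on both strands, the AP-1 element TGANTCA, the EGR element GCGTGGGCG and the NR4A element AAAGGTCA were in no window of the 8 members, against 1.55%, 6.75%, 0.536% and 1.34% of all windows. The Jund window lies 1210 bases from the nearest GENCODE start. A match is a description of the letters and was not tested as a binding site.

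Light zone gate cells were compared with dark zone gate cells first, which asks where in the germinal center cycle the early genes are raised. The gates are read from RNA, on the genes of surface proteins used to tell the zones apart, and may differ from gates on protein: 1 or more thinned UMIs of either Cd83 or Cd86, without Cxcr4, for the light zone gate (1671 and 1157 cells), and the reverse for the dark zone gate (759 and 490 cells). The 3 EGR genes, Nr4a1 and Junb were higher in light zone gate cells, whereas Fos, Fosb, Jun and Jund were at similar or slightly lower levels. Of the 9 members tested, 5 were higher and 2 lower, where 15.5% of all 10652 genes tested were higher, 13.9% were lower and 29.3% were called either way (edgeR quasi-likelihood test with the library as a block, Benjamini-Hochberg adjusted p under 0.05). The 5 include Egr2, which passed the filter on low counts only through its light zone gate sums, so its place in this count is a description.

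Egr3 differed most among the members. It stood at 16.1 and 18.7 CPM in the light zone gate cells of libraries 1 and 2, against 1.14 and 1.68 in dark zone gate cells, from 306 and 254 against 10 and 10 UMIs. Both libraries were high in the light zone gate and the groups did not overlap (log2 fold change 3.64 ± 0.23 SE, edgeR adjusted p = 2.02e-54). At equal depth, 4.25% and 4.93% of light zone gate cells had an Egr3 UMI, against 0.264% and 0.408% of dark zone gate cells. Egr2 stood at 4.998 and 8.37 in light zone gate cells against 1.94 and 0.671 in dark zone gate cells, where it rested on 17 and 4 UMIs, 7 of the 17 from 1 cell. Its log2 fold change of 2.14 (edgeR adjusted p = 4.56e-13) was 1.35 and 3.605 by library, and DESeq2 gave an adjusted p of 0.139. Egr2 passed the filter on low counts through its light zone gate sums, as the dark zone gate sums would not have passed alone. Its call is therefore given as a description. Egr1 (ENSMUSG00000038418, at chr18:34859823-34864984 in the same annotation), the family member with the broadest expression across tissues, stood at 52.6 and 50.2 against 29.8 and 22.7, a log2 difference of 0.94 ± 0.09 SE (edgeR adjusted p = 4.76e-26).

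Nr4a1 stood at 7.31 and 5.21 CPM in light zone gate cells against 2.17 and 3.02 in dark zone gate cells. The groups did not overlap, and the log2 fold change was 1.34 ± 0.24 SE (edgeR adjusted p = 4.35e-07), 1.74 and 0.77 by library, with an adjusted p of 0.1247 by DESeq2. Nr4a3, a related receptor gene also induced by lymphocyte receptors, had 6 and 7 UMIs in light zone gate cells and 4 and 0 in dark zone gate cells and did not pass the filter on low counts. With 3 counts worth 0.342 and 0.504 CPM in the dark zone gate, a difference in Nr4a3 was not detectable at this depth.

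Among the AP-1 genes, Junb stood apart. It had 131 and 174 CPM in light zone gate cells against 73.2 and 75.7 in dark zone gate cells, and was higher in both libraries (log2 fold change 0.99 ± 0.06 SE, edgeR adjusted p = 5.62e-62). JUNB is a JUN family protein that, unlike JUN, often restrains AP-1 activity. Jun stood at 49.1 and 46.8 against 59.9 and 53.5, a log2 difference of −0.26 ± 0.07 SE (edgeR adjusted p = 0.00177), and this call was lost in cells drawn to equal depth and mitochondrial share (−0.12, adjusted p = 0.347). Fos stood at 115 and 103 against 129 and 109.8, with overlapping groups (log2 fold change −0.15 ± 0.06 SE, edgeR adjusted p = 0.0307), and this call was lost without the filter on low counts (adjusted p = 0.0793). Fosb, at 61.5 and 63.4 against 70.1 and 63.6, and Jund, at 482 and 525 against 514 and 503, did not pass the test (adjusted p = 0.155 and 0.583).

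**Figure D1:**
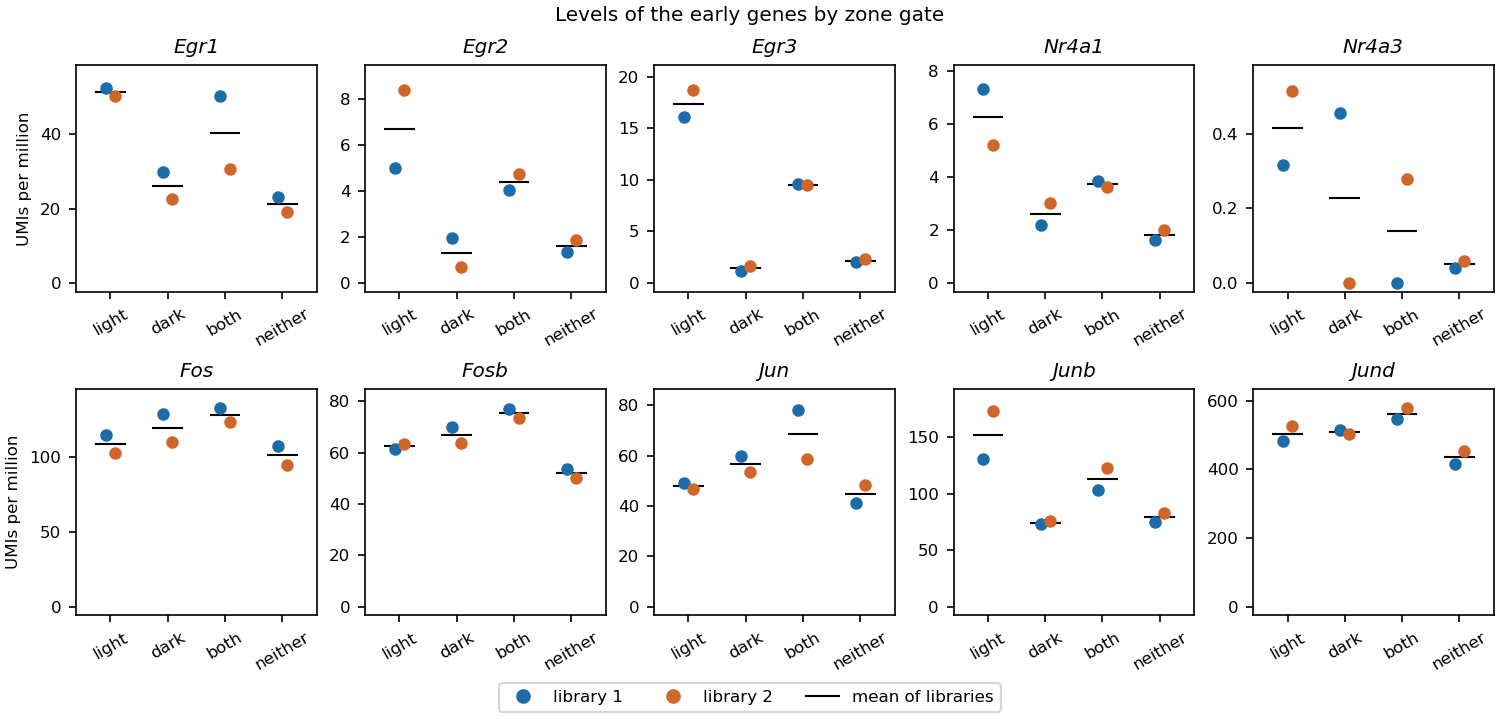
Levels of the 10 members (CPM, linear axes) in cells of the light zone gate, the dark zone gate, with both signals and with neither, 1 point per library and a line at their mean. Egr2, Egr3, Nr4a1 and Junb are ordered light zone gate, both signals, then the other gates, whereas Fos, Fosb, Jun and Jund are highest in cells with both signals.

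Light zone gate cells held more cycle-low cells, 26.3% and 23.2%, against 14.0% and 12.0% of dark zone gate cells. Their naive and memory B cell markers summed to 110 and 140 CPM, against 87.1 and 94.8 in dark zone gate cells. Plasma cell markers summed to 620.5 and 634 CPM against 759.9 and 848, T cell markers to 2.79 and 4.77 against 1.03 and 2.01, and macrophage markers to 7.42 and 10.3 against 5.59 and 4.196. The part of these cells in the zone differences was not tested. Drawn to equal shares of cycle classes, Egr3 was at 3.56, Egr2 at 2.02, Nr4a1 at 1.44, Junb at 0.997 and Egr1 at 0.79 on the log2 scale.

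Cells with both signals (531 and 349 cells) and with neither (1716 and 1139 cells) filled in the order. Egr3 averaged 17.4 ± 1.81 CPM in the light zone gate, 9.53 ± 0.0538 with both signals, 2.16 ± 0.248 with neither and 1.41 ± 0.38 in the dark zone gate (SD, n = 2 libraries each). The ranges of the libraries did not overlap between any neighbours in that order for Egr3. Junb followed with 152 ± 30.2, 113 ± 13.5, 79.2 ± 5.59 with neither and 74.5 ± 1.76 in the dark zone gate, and only the last 2 overlapped. For Egr1 the light zone gate and the cells with both signals overlapped, as did the dark zone gate and the cells with neither. The class means of Fos lay between 101 and 128 CPM, and all neighbours overlapped.

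Genes that act with the members were read from 4 lists. Of 14 other family members and corepressors, 7 were tested, 4 were higher and 1 was lower in light zone gate cells (median log2 fold change 0.50, against −0.0024 over all genes). Batf, an AP-1 factor that pairs with JUN proteins and IRF4, stood at 64.8 and 100.03 against 15.7 and 21.5 CPM (log2 fold change 2.12). Nab2, an EGR target that encodes a corepressor of EGR proteins, stood at 16.05 and 20.6 against 5.02 and 6.21 (1.69), whereas Bach2, a repressor related to AP-1, was lower (−0.23). Of 32 other early response and feedback genes tested, 15 were higher and 3 lower (median 0.33). Nfkbia, the feedback inhibitor of NF-kB, stood at 194 and 276 against 62.4 and 68.1, and Irf4 and Bhlhe40 had log2 fold changes of 1.83 and 1.98. Klf6 and Btg2 were lower (−0.29 and −0.25). Of 19 upstream factors, 4 were higher and 2 lower with a median of 0.13, and Srf was not among them. Of 10 heat shock and dissociation genes tested, 5 were higher and 1 lower with a median of 0.11, the most changed being Socs3, a cytokine feedback gene (3.62).

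Myc-detected light zone gate cells (112 and 111 cells), which include the cells selected to divide again, were set against Myc-undetected light zone gate cells (1559 and 1046 cells). The same 5 members were higher in Myc-detected cells, Fos was lower, and Fosb, Jun and Jund did not pass the test. Among 10064 genes tested, 10.3% were higher, 6.33% were lower and 16.6% were called either way. Egr3 stood at 67.4 and 58.1 CPM in Myc-detected cells against 11.7 and 13.1 in Myc-undetected cells (log2 fold change 2.37 ± 0.17 SE, edgeR adjusted p = 1.11e-20). Egr2 stood at 17.4 and 23.7 against 3.94 and 6.20 (2.05 ± 0.27 SE, edgeR adjusted p = 3.05e-09). All 4 values were higher than in any Myc-undetected sum.

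Nr4a1 stood at 24.7 and 17.2 against 5.83 and 3.52 CPM, from 37 and 29 UMIs in Myc-detected cells, of which 1 cell of each library gave 13 and 8 (log2 fold change 2.20 ± 0.27 SE, edgeR adjusted p = 3.56e-10). Junb stood at 292 and 333 against 117 and 151 (1.26 ± 0.10 SE, edgeR adjusted p = 7.14e-18). Egr1 was less even between the libraries, with 119 and 58.7 against 47.0 and 49.0, a log2 difference of 0.89 (edgeR adjusted p = 1.21e-06) that was 1.37 and 0.28 by library, and DESeq2 gave an adjusted p of 0.396. With classes on unthinned counts Egr1 was at 0.15 (adjusted p = 0.419). Fos stood at 91.4 and 59.9 against 117 and 109 (−0.56 ± 0.13 SE, edgeR adjusted p = 7.87e-04). In cells drawn to equal depth and mitochondrial share the Fos value was −0.19 (adjusted p = 0.673), while Egr3, Egr2, Nr4a1, Junb and Egr1 were at 2.68, 1.90, 2.96, 1.37 and 1.09, all called. Myc-detected cells of library 2 had a median depth of 11509 UMIs and a median mitochondrial share of 9.46%, against 8538 UMIs and 13.2% in its Myc-undetected cells. In Myc-detected cells T cell markers summed to 7.34 and 13.1 CPM, against 2.40 and 3.604 in Myc-undetected cells, plasma cell markers to 538 and 449.6 against 628 and 660.1, and germinal center markers to 2234 and 1929 against 2779 and 2952. Only 3 and 2 of the 8 T cell markers were detected in Myc-detected cells. In library 2 these were Trac and Thy1, with Cd3e, Cd3d and Cd3g at 0. What part these marker differences have in the result was not tested.

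Of 32 other early response and feedback genes, 13 were higher and 3 lower in Myc-detected cells (median 0.36, against −0.0082 over all genes). Tnfaip3, Nfkbiz and Nfkbia, all NF-kB feedback genes, had log2 fold changes of 2.01, 1.74 and 1.79, and Irf4 one of 1.84. Batf stood at 221 and 347 against 51.4 and 65.1 CPM (2.29), and the EGR corepressor genes Nab1 and Nab2 were higher too (0.69 and 0.66). Of 19 upstream factors, 4 were lower, among them Mef2d (−0.49) and Nfatc3 (−0.45). Of 10 heat shock and dissociation genes, 7 were higher with a median of 0.50, led by Socs3 (3.81).

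**Figure D2:**
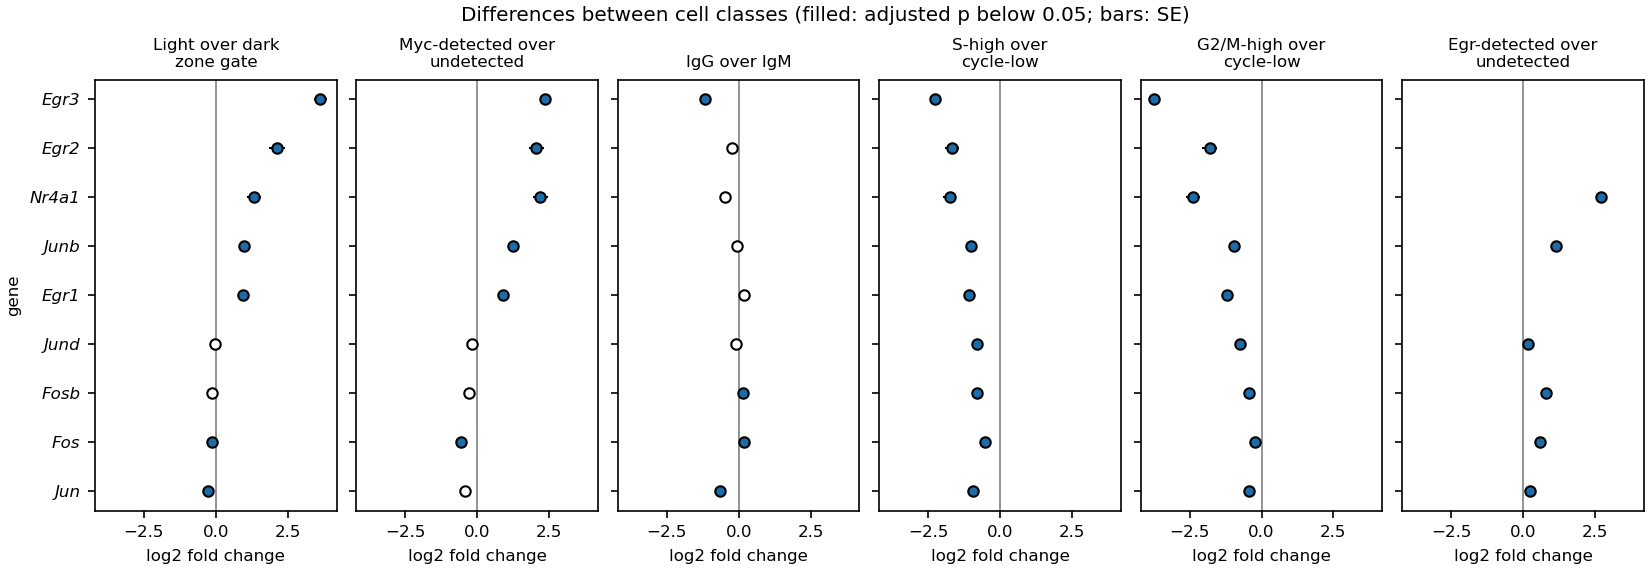
Log2 fold change of the 9 members that passed the filter in 6 comparisons, with bars of 1 SE and filled points for adjusted p under 0.05. Egr3, Egr2, Nr4a1, Junb and Egr1 lie right of 0 in the zone and Myc comparisons and left of 0 in both cycle comparisons. The EGR genes are left out of the last panel, whose classes they define.

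IgG cells (1916 and 1239 cells), which have switched isotype, were compared with IgM cells (1644 and 1172 cells). Egr3 and Jun were lower in IgG cells, Fos and Fosb were higher by a small amount, and Egr1, Egr2, Nr4a1, Junb and Jund did not pass the test. That is 2 higher and 2 lower of 9 tested, where 5.89% of 11139 genes were higher, 7.86% were lower and 13.7% were called. Egr3 stood at 5.45 and 4.84 CPM in IgG cells against 10.6 and 12.6 in IgM cells, without overlap (log2 fold change −1.16 ± 0.13 SE, edgeR adjusted p = 1.60e-16). It was between the 2 in cells of mixed isotype, at 7.17 and 9.39. Jun stood at 41.4 and 39.4 against 65.5 and 58.6 (−0.64 ± 0.06 SE, edgeR adjusted p = 1.71e-24), also without overlap. Fos, at 127 and 107 against 109 and 96.5, and Fosb, at 65.9 and 61.0 against 58.6 and 52.9, had log2 fold changes of 0.17 and 0.17 (edgeR adjusted p = 0.00476 and 0.0267). DESeq2 called neither, and both calls were lost in cells of equal depth and mitochondrial share (0.06 and 0.05), where Egr3 was at −1.24, Jun at −0.73 and Jund was called lower (−0.11).

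The 9 naive and memory B cell markers summed to 56.9 and 50.9 CPM in IgG cells against 156 and 196 in IgM cells, of which Ighd is also used to define the class. Without the cells that carried markers of other cells, Egr3 was at −1.08 and Jun at −0.60, and both were still called. When the classes were drawn to equal shares of zone gates and cycle classes, Egr3 was at −1.04 and Jun at −0.64. Of 32 other early response and feedback genes, 12 were lower in IgG cells (median −0.13, against 0.0073 over all genes), including Klf2, a quiescence factor and one of the memory markers (−1.17), Bhlhe40 (−0.66) and Irf4 (−0.45). Nab2 was lower by the same test (−0.38), and of 19 upstream factors 2 were higher (Mef2b, 0.31, and Mef2c, 0.12) and Nfatc1 was lower (−0.24).

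Cell cycle classes were cut from the summed thinned UMIs of S phase and G2/M phase genes, so each is a range of a sum and not a sorted phase. All 9 members tested were lower in S-high cells (1164 and 851) and in G2/M-high cells (1193 and 791) than in cycle-low cells (871 and 501). The background is wide: 62.3% of 10465 genes were called in the S comparison, with 30.9% higher and 31.4% lower. In the G2/M comparison 52.1% of 10300 were called, with 26.3% higher and 25.8% lower. Both comparisons share the cycle-low cells. Egr3 stood at 1.71 and 3.10 CPM in G2/M-high cells and 6.10 and 6.12 in S-high cells, against 24.4 and 40.9 in cycle-low cells. Its log2 fold changes were −3.73 ± 0.17 SE for G2/M-high and −2.28 ± 0.15 SE for S-high (edgeR adjusted p = 1.94e-15 and 3.63e-50).

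Nr4a1 stood at 1.66 and 2.83 in G2/M-high cells and 3.76 and 2.56 in S-high cells, against 10.5 and 12.9 CPM in cycle-low cells (−2.39 and −1.75 on the log2 scale). Egr2 stood at 1.83 and 3.10 in G2/M-high cells and 2.35 and 2.79 in S-high cells, against 6.04 and 12.1 in cycle-low cells (−1.81 and −1.68), and its S-high call was lost with classes on unthinned counts (−0.45, adjusted p = 0.144). Egr1 stood at 28.6 and 29.0 in G2/M-high cells and 31.7 and 28.8 in S-high cells, against 69.5 and 64.5 in cycle-low cells (−1.19 and −1.07). Junb stood at 84.7 and 105 in G2/M-high cells and 82.3 and 94.98 in S-high cells, against 163 and 215 in cycle-low cells (−0.95 and −1.01). These 4 genes were called in both comparisons, with edgeR adjusted p of 2.22e-06 or less, and the cycle-low sums were the highest in both libraries.

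The changes of Jund, Fosb, Jun and Fos were smaller. Jund stood at 434 and 459 in G2/M-high cells and 390.1 and 441 in S-high cells, against 750.3 and 778 CPM in cycle-low cells (−0.74 and −0.81 on the log2 scale). Fosb (−0.45 and −0.80), Jun (−0.45 and −0.95) and Fos (−0.24 and −0.53) were lower in G2/M-high and S-high cells. Cycle-low cells were shallower, with median depths of 5320 and 5524 UMIs, against 10990 and 10280 in G2/M-high and 10807.5 and 11598 in S-high cells. In cells drawn to equal depth and mitochondrial share, Fos, Jun and Fosb were no longer lower in G2/M-high cells (0.06, 0.22 and 0.02, adjusted p = 0.594, 0.0737 and 0.903). In S-high cells the same draw gave 0.05 for Fos and −0.05 for Jun, neither called, and −0.35 for Fosb (adjusted p = 0.0344). Egr3, Egr2, Nr4a1, Junb, Egr1 and Jund were still called lower in both, for Egr3 at −2.86 and −1.66.

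**Figure D3:**
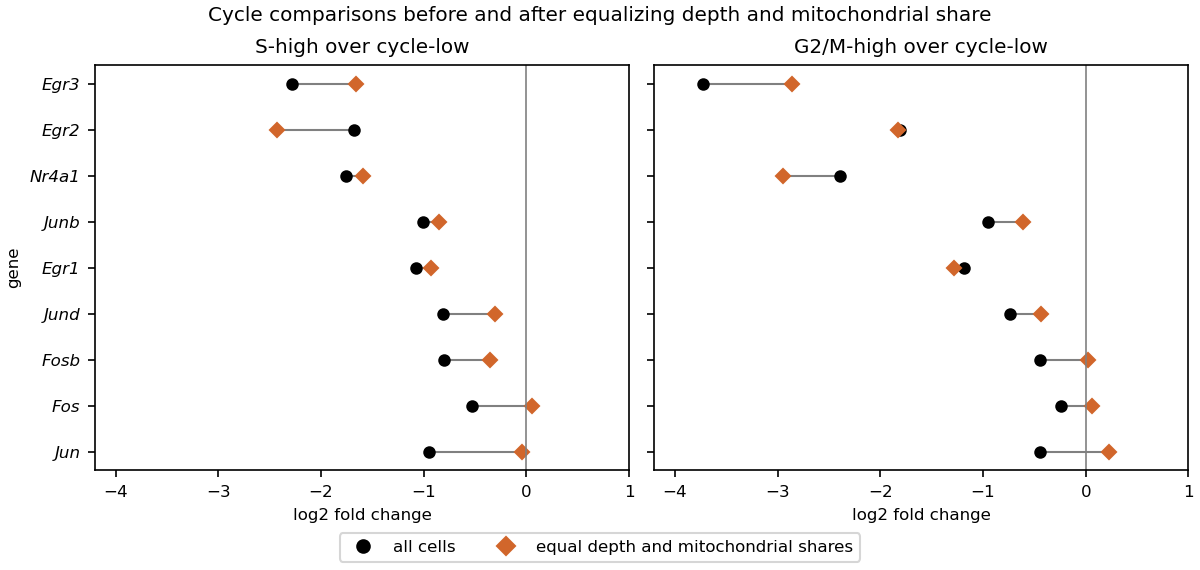
Log2 fold change of 9 members in S-high and G2/M-high cells over cycle-low cells, in all cells (circles) and in cells drawn to equal depth and mitochondrial share (diamonds). Fos and Jun move to between −0.05 and 0.22, and Egr3, Egr2, Nr4a1, Egr1 and Junb stay at −0.61 or lower.

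Naive and memory B cell markers summed to 78.9 and 120 CPM in G2/M-high cells and 64.3 and 64.3 in S-high cells, against 270.4 and 376 in cycle-low cells. All 7 macrophage markers were detected in cycle-low cells. The list summed to 5.20 and 6.93 CPM in G2/M-high cells and 5.16 and 5.66 in S-high cells, against 80.5 and 23.6 in cycle-low cells. T cell markers summed to 1.06 and 1.82 in G2/M-high cells and 1.995 and 2.87 in S-high cells, against 2.31 and 11.5 in cycle-low cells. Plasma cell markers moved the other way, at 747 and 814 in G2/M-high cells and 697 and 819.9 in S-high cells, against 619 and 521 in cycle-low cells. Germinal center markers were highest in cycle-low cells, at 3429 and 3508, against 2875 and 2991 in G2/M-high cells and 2438 and 2523 in S-high cells. Without the cells that carried markers of other cells, Egr3 was at −3.78 in G2/M-high and −2.27 in S-high cells. Of 31 other early response and feedback genes tested in the G2/M comparison, 22 were lower (median −0.58), and of 32 in the S comparison 24 were lower and 2 higher (median −0.72), where the medians over all genes were −0.025 and −0.029. Klf2 (−1.79 and −2.31) and Bhlhe40 (−2.51 and −1.75) changed most in both. The antiproliferative genes Btg1 and Btg2 were at −1.40 and −1.26 in S-high cells. Nab2 fell with the EGR genes (−0.99 and −1.38), and the ternary complex factor gene Elk3, an SRF partner, did so too (−0.94 and −1.10). The heat shock genes went the other way: 7 of 10 were higher in G2/M-high cells (median 0.52) and 8 of 10 in S-high cells (median 0.94), led in both by Hsp90aa1 (1.28 and 1.70).

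Whether the zone difference itself differed between isotypes or cycle classes was tested with interaction terms. None of 9 members was called in either test by edgeR (smallest adjusted p = 0.487 for isotype and 0.51 for cycle), where 0.414% of 9899 genes were called for isotype (0.0404% positive, 0.374% negative) and 0.151% of 9253 for cycle (0.108% and 0.0432%). At an unadjusted p under 0.05 there were 1 and 2 members by edgeR. The share of all genes at that p is not given here, so no result is drawn from these counts. By DESeq2 none of 9 was called for isotype and none of the 2 with an adjusted p for cycle. Under other settings the cycle term was called for Jun with another thinning draw (1.06, edgeR adjusted p = 0.0065) and for Fos with classes on unthinned counts (0.83, edgeR adjusted p = 0.0143). In cycle-low cells Egr3 stood at 37.5 and 51.9 CPM in light zone gate cells against 1.58 and 5.36 in dark zone gate cells, the latter from 1 and 2 UMIs. In G2/M-high cells it stood at 3.50 and 6.09 against 0.295 and 2.25, the latter from 1 and 4 UMIs. Egr2 had 1 and 1 UMIs in cycle-low and 4 and 0 in G2/M-high dark zone gate cells. Nr4a1 had 1 and 3 in the former and 10 and 4 in the latter. With so few dark zone gate UMIs, the uncalled interactions of Egr3, Egr2 and Nr4a1 cannot tell whether their zone differences were the same in both cycle classes. The same limit holds for isotype, where Egr2 had 3 and 1 UMIs in IgG and 13 and 0 in IgM dark zone gate cells. Junb in cycle-low cells stood at 192 and 248.5 in light zone gate cells against 115 and 171 in dark zone gate cells, and in G2/M-high cells at 106 and 148 against 75.6 and 80.5. Light zone gate cells of low cycle sums thus held the highest levels of both Egr3 and Junb in both libraries, among the 8 zone and cycle classes.

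Cells in which any EGR transcript was seen (545 and 370 cells with a thinned UMI of Egr1, Egr2 or Egr3) were compared with the others (4132 and 2765 cells) for the remaining members. Nr4a1, Junb, Fosb, Fos, Jun and Jund were higher, 6 of the 7 tested, where 6.54% of 11428 genes were higher, 9.58% were lower and 16.1% were called. Nr4a1 stood at 16.9 and 13.3 CPM in EGR-detected cells against 2.31 and 2.26 in the others (log2 fold change 2.72 ± 0.18 SE, edgeR adjusted p = 2.77e-07). Junb stood at 188 and 235 against 85.5 and 103 (1.14 ± 0.04 SE, edgeR adjusted p = 1.78e-09). Fosb, at 102 and 93.5 against 56.2 and 54.8, and Fos, at 169 and 146 against 109 and 97.3, had log2 fold changes of 0.80 and 0.58. Jun and Jund had 0.26 and 0.17, and these calls were lost in cells of equal depth and mitochondrial share (0.06 and 0.10). With classes on unthinned counts both changed sign, to −0.09 for Jun, not called, and −0.14 for Jund, called lower. Nr4a3 had 5 and 3 UMIs in EGR-detected cells and 6 and 6 in the others (0.865 and 0.738 against 0.116 and 0.166 CPM) and was not called. It passed the filter on low counts only through the EGR-detected sums, so no result is drawn from its test.

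Naive and memory B cell markers summed to 149 and 136 CPM in EGR-detected cells, against 97.8 and 122 in the others. Plasma cell markers summed to 645 and 634 CPM in EGR-detected cells, against 717 and 783 in the others. Drawn to equal shares of zone gates and cycle classes, Nr4a1 was at 2.10 and Junb at 1.02.

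EGR-detected cells also had more of the other early response and feedback genes: 20 of 33 tested were higher and 1 lower, with a median of 0.56 against −0.010 over all genes. Ier2, an immediate early gene, stood at 52.9 and 72.6 against 15.3 and 18.6 CPM (1.85). Plk3, Tnfaip3 and Nfkbiz had log2 fold changes of 1.57, 1.53 and 1.52. Nab2 stood at 20.6 and 33.0 against 8.30 and 9.11 (1.55), and Nfatc1, a calcium-regulated factor of antigen receptor signalling, was higher (0.48). Of 10 heat shock and dissociation genes 7 were lower, by small amounts, among them Hspe1 (−0.33) and Hsp90aa1 (−0.23).

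Cell by cell, all 45 pairs of members were scored by the number of thinned cells with both transcripts over the number expected from their separate shares in the library. These ratios are descriptions of cells that share a library, with no test. Egr2 and Egr3 were found together in 10 and 13 cells, where 0.894 and 1.04 were expected, ratios of 11.2 and 12.5. Egr3 and Nr4a1 shared 7 and 11 cells (ratios 6.17 and 11.7), Egr1 and Egr3 50 and 29 cells (4.86 and 4.12), and Egr2 and Nr4a1 only 2 and 3 cells (4.39 and 5.34). Within the light zone gate the Egr2 and Egr3 ratio was 8.15 and 6.999 and the Egr1 and Egr3 ratio 4.01 and 3.13. Junb co-occurred with Egr3 at 2.20 and 1.59.

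The FOS and JUN genes formed looser pairs. Fosb and Jun shared 219 and 148 cells (ratios 1.497 and 1.46) and Fos and Fosb 416 and 265 cells (1.34 and 1.39). Fos and Junb were near the number expected (1.10 and 1.07), as were Jun and Junb (1.05 and 1.04). Egr3 and Jun were found together less often than expected in both libraries, in 12 and 9 cells against 15.9 and 11.9, a gap of 4 cells or fewer.

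**Figure D4:**
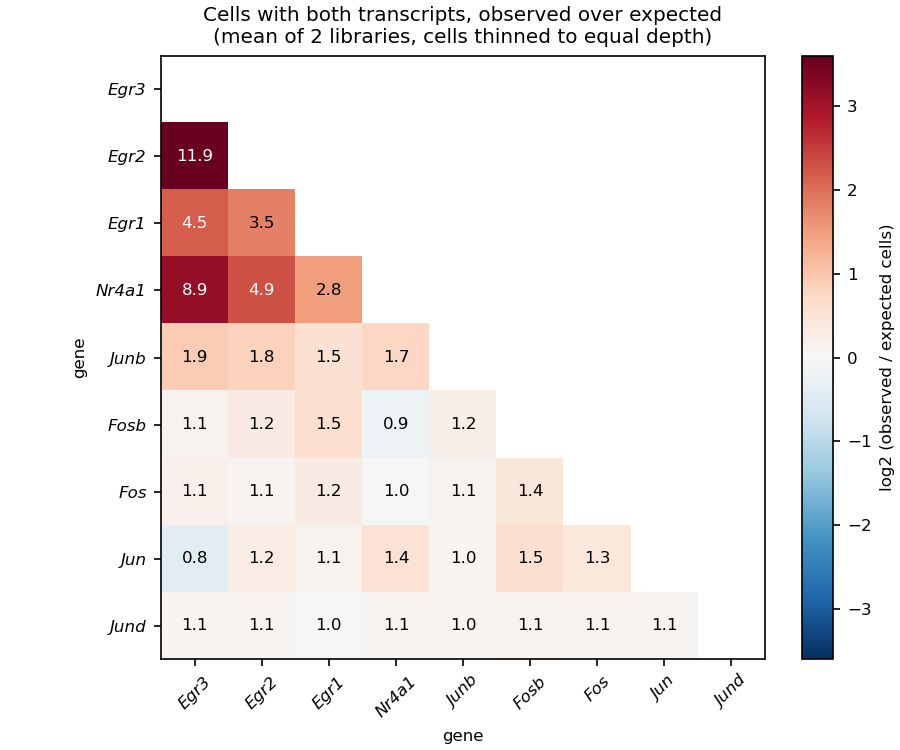
Observed over expected number of cells with both transcripts for 9 members, mean of the 2 libraries, on a log2 color scale. The EGR genes and Nr4a1 form a block of ratios from 2.82 to 11.9, and the pairs of Jund with the other 8 lie between 1.02 and 1.09.

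Levels over 32 sums (4 zone gates by 4 cycle classes in 2 libraries) were correlated as a description, with no test, since the sums share libraries and depth. The Pearson correlation of log2(CPM + 1) was 0.92 between Fos and Fosb, 0.87 between Fosb and Jun and 0.86 between Fos and Jun. It was 0.84 between Egr3 and Junb, 0.81 between Egr2 and Egr3 and 0.79 between Egr1 and Egr3. Between Egr3 and Fos it was 0.24. Egr2 and Egr3 had few UMIs in several dark zone gate sums, so their correlations carry counting error. In G2/M-high dark zone gate cells, Egr2 had 0 UMIs in library 2 and Egr3 had 1 in library 1. Of genes outside the members, those most like Junb over the 32 sums were Nfkbie (0.95), Cyba (0.94) and Tmem123 (0.93), and those most like Egr1 were Cd180 (0.88), Skil (0.86) and Pou2f2 (0.85). Those most like Fos were Akap13 (0.91), Clk1 (0.90) and Tmem50a (0.89), and those most like Jun were Btg2 (0.90), Lars2 (0.89) and Gramd1a (0.89). Jund was most like Cd79b (0.96), Gpsm3 (0.96) and Lax1 (0.95), and Fosb most like CAAA01118383.1 (0.89), Csprs (0.89) and Btg2 (0.88). The other 4 members were below the 10 CPM required.

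The members also divided by the mitochondrial share of the cell, a measure of cell quality. This comparison was added after the data were seen. Fos stood at 184 and 179 CPM in cells of 15 to 20% mitochondrial UMIs against 69.8 and 59.9 in cells of 0 to 10%, with intermediate cells at 139.9 and 128. Jun stood at 81.9 and 93.1 against 28.0 and 25.4, Fosb at 94.7 and 94.1 against 39.4 and 38.3, Egr1 at 51.3 and 43.1 against 25.9 and 22.7 and Jund at 561 and 613 against 385 and 417. These 5 were higher at the higher share in both libraries, with log2 fold changes of 1.34 ± 0.07, 1.55 ± 0.07, 1.13 ± 0.07, 0.81 ± 0.08 and 0.40 ± 0.08 SE (edgeR adjusted p = 5.36e-23, 1.19e-24, 2.10e-20, 1.89e-13 and 5.29e-06). In this comparison 33.9% of 11169 genes were higher, 35.3% were lower and 69.3% were called.

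Egr2 and, by a call that rests on library 2, Egr3 were lower at the higher share, and Junb and Nr4a1 did not pass the test. Egr2 stood at 1.88 and 3.74 CPM in cells of 15 to 20% against 3.41 and 4.45 in cells of 0 to 10% (log2 fold change −0.68, edgeR adjusted p = 0.00812), and Egr3 at 7.14 and 6.31 against 6.88 and 9.16 (−0.36, edgeR adjusted p = 0.0397). By library the log2 fold changes were −1.01 and −0.38 for Egr2 and −0.10 and −0.67 for Egr3, and the CPM of Egr3 was not lower in library 1. DESeq2 called neither (adjusted p = 0.167 and 0.285). Junb stood at 99.8 and 114 against 92.6 and 118 and Nr4a1 at 3.46 and 2.78 against 3.76 and 3.50. Cells of 15 to 20% were shallower, with median depths of 6634 and 6604 UMIs against 17207 and 17281. Between cells of equal depth, Fos, Jun, Fosb and Egr1 were still called higher (0.95, 0.91, 0.64 and 0.31), Egr3, Nr4a1, Egr2 and Junb were lower (−2.40, −1.46, −1.32 and −0.54, all called), and Jund was not called (−0.11).

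**Figure D5:**
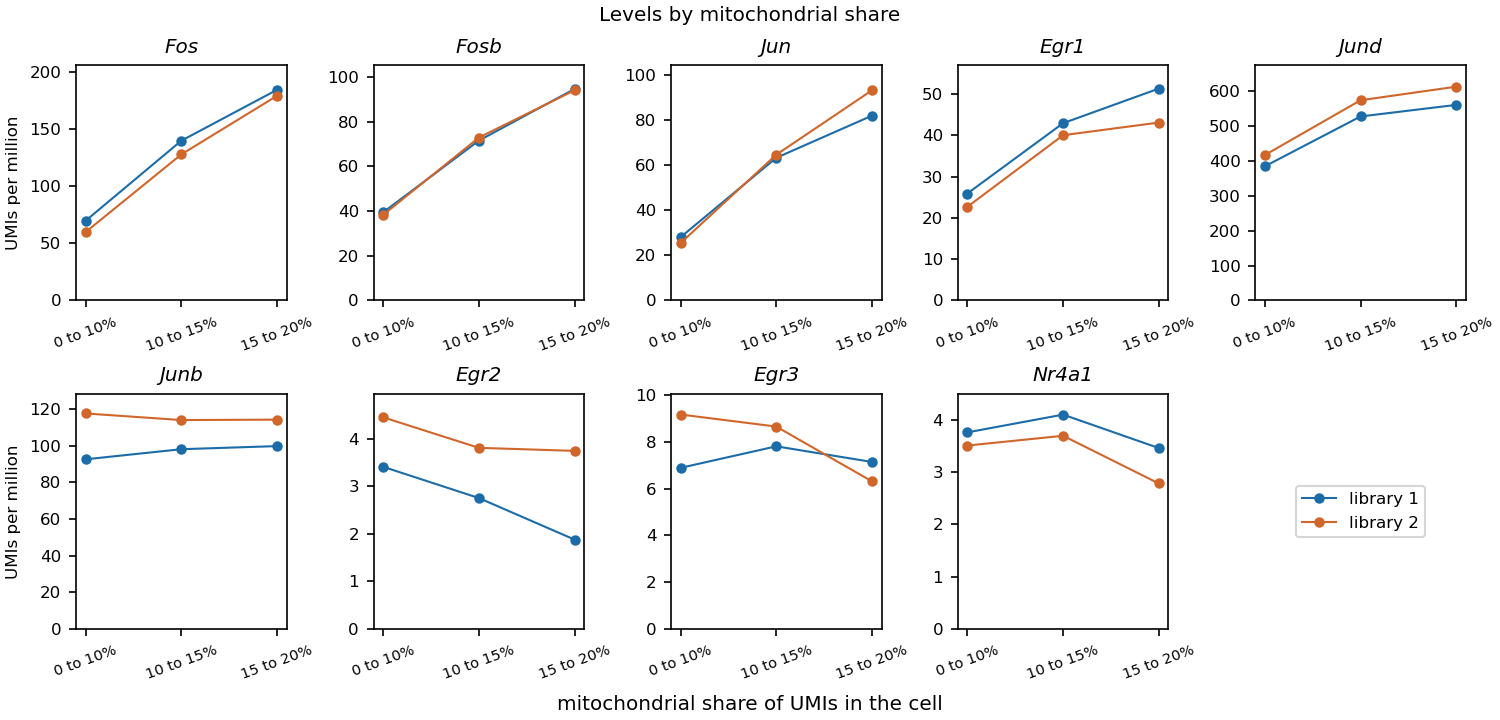
Levels of 9 members (CPM, linear axes from 0) in cells of 0 to 10%, 10 to 15% and 15 to 20% mitochondrial UMIs, 1 line per library. Fos, Fosb and Jun are more than 2 times as high in the last class as in the first in both libraries, and Junb stays within 92.6 to 118 CPM.

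In the heat shock and dissociation list, which leaves out the members, 9 of 10 genes tested were lower at the higher mitochondrial share (median −0.63, against 0.017 over all genes). Among them were Hspe1 (−1.86) and Hspd1 (−1.68). The genes of the lists were not read in cells of equal depth. Of 32 other early response genes, 16 were higher and 10 lower, with Klf4 (1.26), Ppp1r15a (0.99), Dusp5 (0.94) and Klf6 (0.93) among those that rose and Rcan1 (−1.93) falling most. Batf stood at 18.0 and 25.2 CPM in cells of 15 to 20% against 52.3 and 84.4 in cells of 0 to 10%. What part cell handling has in these levels was not tested.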

How the data were processed

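The authors deposited, for each of 2 libraries, unnormalized UMI counts per gene and barcode, made with Cell Ranger, version 3.0.2 per the file headers, on mm10 per the submitters' processing notes; the rest of that step is not given in the sources used here. Members, gene lists and tests were chosen with earlier results of these data known.

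Barcodes needed 500 genes, 1000 UMIs and at most 20% mitochondrial UMIs. Cells were thinned at random to 3400 UMIs (10th percentile), and shallower cells, 465 in library 1 and 391 in library 2, were left out. Classes were read on thinned counts. An isotype class needed 3 or more heavy chain UMIs, 80% or more of them of that isotype (Ighd counted with Ighm). Cycle classes used tertiles of sums over 43 S and 54 G2/M genes, with limits of 9 and 19 UMIs and of 22 and 49 UMIs. Unthinned UMIs were summed per library and class and tested with edgeR 4.0.16 (TMM, filterByExpr, quasi-likelihood, Benjamini-Hochberg over all genes) in R 4.3.3. The library was a block, since each library holds both classes. The test was checked on simulated counts. DESeq2 1.42.0 was an alternative. The doublet caller in scanpy 1.11.5 marked 0 cells and so did not work, and doublets were kept. The choice of equal depth and mitochondrial shares (5 depth by 3 mitochondrial strata), and the comparison by mitochondrial share, were added after seeing the data. All members are named, and from each list up to 4 genes called in each direction with the largest changes of like sign in both libraries. Irf4 is also a plasma cell marker, and Klf2 a naive and memory B cell marker. Floors and shares cover counting error only.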

Additional observations from a re-analysis of the deposited data

How the results depend on the processing

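Of 794 values of single members under other settings, 690 kept direction and, where tested, side of the threshold. Of the rest, 59 lost the call, 26 gained a call and 17 changed sign. The other 2 changed sign in library 2 taken alone, with no test, for members not called: Egr2 by isotype (0.053) and Jund by zone (0.052). Without the replicate block, called genes numbered 353 (zone, against 3126), 39 (isotype, 1531), 630 (Myc, 1669), 3352 (G2/M, 5370), 35 (EGR-detected, 1842) and 0 in both interactions (41 for isotype and 14 for cycle, with 215 and 375 genes at an unadjusted p under 0.05). DESeq2 called 807, 246, 399, 3457 (S, against 6517), 2420 and 662 genes, and 0 for zone by isotype (175 at an unadjusted p under 0.05). On thinned sums the counts were 1514, 1002, 302, 4342, 3573 and 646, with 0 (466 at an unadjusted p under 0.05) and 6 for the interactions. Equal depth and mitochondrial shares gave 1954 (zone), 628 (Myc), 2757 (S) and 809 (EGR-detected). Equal cycle class shares gave 1926 (zone), and equal zone and cycle shares 459 (EGR-detected). Classes on unthinned counts gave 5031 (Myc), 1 and 37 (interactions), and another thinning draw 806 (Myc), 4 and 40. A mitochondrial limit of 10% gave 1005 (isotype), 666 (EGR-detected), 1 and 35, and one of 40% gave 4051 (isotype), 0 (513 at an unadjusted p under 0.05) and 23. Without cells with other-cell markers zone by isotype gave 12, and without a filter zone by cycle gave 22. The causes were not tested, except that equal shares and thinned sums hold fewer cells or UMIs.

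Signs changed for Jund by zone (0.029 unthinned, 0.052 with another draw, 0.034 at the 10% limit), Fosb by zone (0.028, another draw), Fos and Fosb by isotype (−0.039 and −0.038, 10% limit), Junb and Jund by isotype (0.013 unthinned, 0.034 at the 40% limit), Jun by Myc (0.41, 10% limit) and Fosb in G2/M-high cells (0.044, 10% limit). They also changed for Jun and Jund in EGR-detected cells (−0.094 and −0.14 unthinned). With equal depth and mitochondrial shares they changed for Fos in S-high cells (0.051) and for Fos, Fosb and Jun in G2/M-high cells (0.063, 0.019 and 0.22), and with equal depth for Jund by mitochondrial share (−0.11). In the zone by cycle interaction, Jun was called with another draw (1.06, edgeR adjusted p = 0.0065) and Fos with classes on unthinned counts (0.83, edgeR adjusted p = 0.0143). With 1 library left out no test was possible, and the other library's values stand beside the results. Genes under 10 CPM (Egr2, Egr3, Nr4a1, Nr4a3) are limited by depth.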
